A study of Homo sapiens with 6 samples.

Results

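The transcripts of E2 ubiquitin-conjugating enzymes, cullins and ubiquitin-specific proteases (USPs) were examined for IGF2BP3 binding in HCT116 cells. The set was defined by gene symbol: UBE2 followed by a letter, CUL followed by a digit, or USP followed by digits, with the repetitive USP17L genes left out. It holds 97 of the 20046 protein-coding genes of GENCODE release 44, of which 37 are E2 genes, 8 are cullins and 52 are USP genes. The symbol rule also takes in USP6NL, which encodes a GTPase-activating protein and no protease, and UBE2F-SCLY, a readthrough gene that joins UBE2F to the downstream SCLY. It leaves out CDC34 and BIRC6, which are E2 enzymes under other names.

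Ubiquitin is attached to proteins by a cascade in which an activating E1 enzyme passes it to an E2 conjugating enzyme, and an E3 ligase brings the loaded E2 to the substrate. Cullins are the elongated scaffolds of the cullin-RING ligases: they hold the RING protein that recruits the E2 at one end and the substrate receptor at the other, and they are switched on by attachment of the ubiquitin-like protein NEDD8. USPs are cysteine proteases that take ubiquitin off again. IGF2BP3 is an oncofetal RNA-binding protein that is abundant in many tumours and binds mature mRNAs, mainly in the 3′UTR.

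HCT116 is a human colorectal carcinoma line, and all samples carry the genotype label Tet-OsTIR1-PURO. All 6 libraries came from cells that took up 4-thiouridine (100 µM, 15 h) before long-wave UV crosslinking, so that crosslinked positions are read as T-to-C conversions. Endogenous IGF2BP3 was precipitated with a Proteintech antibody in 5 libraries, and an IgG control was used in the sixth. RNase concentrations are written as the in-lysate value, a slash and the on-beads value, in U/µL. The IGF2BP3 libraries were digested with RNase I at 0.05/0.05, 0.1/0.025 or 0.05/0.025, or with RNase T1 at 1/1 or 0.25/0.25, and the IgG library with RNase I at 0.1/0.025. Each condition has 1 library, so differences between conditions have no replicate check and no p-value is given. The RNase I 0.05/0.05 and RNase T1 1/1 libraries were electroeluted and the other IGF2BP3 libraries recovered from crushed gel, so that the concentration and the extraction cannot be told apart between the RNase T1 libraries, nor between RNase I 0.05/0.05 and the other RNase I libraries. RNase I 0.1/0.025 and 0.05/0.025 shared the extraction and differ in the in-lysate concentration. By the study's own checks the antibody also recognises the paralog IGF2BP2 in part.

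The IGF2BP3 libraries held between 182448 and 2362467 reads in clusters. Values are in CPM, the reads of a cluster scaled to 1000000 cluster reads of its library, and the level of a gene is the sum over its clusters. A read was worth 0.423 CPM in the RNase I 0.05/0.05 library and 5.48 CPM in the RNase T1 0.25/0.25 library, the shallowest. Reads in clusters reflect both how much of a transcript the cells hold and how often it is bound, and these cannot be told apart here. The 25 clusters of the IgG library, with 324 reads, included 0 on exons of the 97 genes.

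The sites with the highest CPM are shown as examples of what was captured on these transcripts. Each is a stretch of at most 29 bases around the mode of the gene's highest cluster by CPM. It is written 5′ to 3′ on the transcript strand in DNA letters from the deposited cluster sequences, which were identical to GRCh38. A read is worth more CPM in a shallower library, so these need not be the clusters with the most reads. The UBE2K site comes from a cluster of 41 reads in RNase T1 0.25/0.25, while another UBE2K cluster held 182 reads in RNase I 0.05/0.05. Capitals mark CATT, CATA or CAGT, short motifs related to the CA-rich sequences bound by IGF2BP proteins, searched on the transcript strand only. For the E2 enzymes, the sites are those of the 7 genes with the highest mean level in the family and of UBE2J2, which had the highest ratio of RNase I to RNase T1 among genes with at least 50 reads and a cluster with both enzymes.
UBE2K (chr4:39778968-39778996, plus strand, 3′UTR): aattgaagatggtgacctattcagagcct
UBE2D3 (chr4:102797159-102797187, minus strand, 3′UTR): aCAGTtgcccaagactcagaatttttaaa
UBE2V1 (chr20:50081871-50081899, minus strand, 3′UTR): tgaatattgggtcctcagccctgccaccc
UBE2L3 (chr22:21623430-21623450, plus strand, 3′UTR): attttatttcactcacactcc
UBE2G1 (chr17:4272212-4272240, minus strand, 3′UTR): tacaccttgtaccaaataatgctttcttg
UBE2G2 (chr21:44770892-44770920, minus strand, 3′UTR): ttccctgtgggccccatgaggagtcCATT
UBE2N (chr12:93410009-93410037, minus strand, 3′UTR): ttgatacgatcatcaagtgtgcatcactt
UBE2J2 (chr1:1254645-1254673, minus strand, 3′UTR): tggtctcagCATTtacaaatgtgtttaca

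For the cullins, the sites of the 3 genes with the most reads are shown.
CUL1 (chr7:148800696-148800724, plus strand, 3′UTR): aaactgagaccaagactcccatcagctgg
CUL3 (chr2:224481892-224481920, minus strand, coding sequence): caaactacacagagtcaagattcaaacag
CUL4B (chrX:120524974-120525002, minus strand, 3′UTR): gaccatcaacaaCAGTgttctaactcatc

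For the USPs, the sites are those of the 4 genes with the most reads, which are USP22, USP46, USP34 and USP10, of USP12, a relative of USP46, of USP8, whose reads lie largely in coding sequence, of USP7, which the study names, and of USP45, which had the lowest such ratio.
USP22 (chr17:21002189-21002217, minus strand, 3′UTR): tgcctggctcctctgggtgccttggtgtc
USP46 (chr4:52595219-52595247, minus strand, 3′UTR): agtttacatccctCATTcaCAGTgtaaag
USP10 (chr16:84779256-84779284, plus strand, 3′UTR): actctaacttccaaatcaaaatCATTtgg
USP34 (chr2:61214580-61214608, minus strand, coding sequence): cgtgaccttccactCAGTccagacacaac
USP12 (chr13:27067040-27067068, minus strand, 3′UTR): tcctggtaatcaCATActtgttcacatct
USP8 (chr15:50499415-50499443, plus strand, 3′UTR): gccttttcaCATTtctaaatcccatcttg
USP7 (chr16:8893633-8893661, minus strand, 3′UTR): gtggctcggctgccttcctggggtcccgt
USP45 (chr6:99435035-99435063, minus strand, 3′UTR): tCATAttttatacaattcaacCATAtaaa

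Of 31 such sites listed for the genes named by level, as cullins or by enzyme ratio, 14 held at least 1 of the 3 motifs. Over windows of the same length at all clusters of the 97 genes the share was 38.7%, and at all clusters of protein-coding genes 36.9%. The sites of USP22 and USP7 are rich in G and C and hold none of the 3 motifs, whereas the sites of USP45, USP12 and USP8 are rich in A and T. The sites of UBE2J2 and USP10 are rich in A and T as well. Like USP22 and USP7, both genes had all RNase I values above their RNase T1 values. These sites were picked from those printed, and their base composition was not tested against the enzyme ratio.

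Following the criterion of the study, a gene counted as a target if any of its clusters passed both 10 CPM and 0.5 conversion events per read. On this basis, 43 of the 97 genes (44.3%) were targets in the RNase I 0.05/0.05 library, against 21.9% of all protein-coding genes. The RNase I 0.1/0.025 library gave 46 (47.4%, background 21.3%) and the RNase I 0.05/0.025 library 44 (45.4%, background 22.0%). The RNase T1 1/1 library gave 46 (47.4%, background 19.6%) and the RNase T1 0.25/0.25 library 33 (34.0%, background 13.7%). The share was above the background in each of the 5 libraries. In the IgG library 0 of the 97 genes were targets, with a background of 0.0299%. The libraries differ in what the threshold asks: 10 CPM corresponded to 23.6 reads in the RNase I 0.05/0.05 library and to 1.82 reads in the RNase T1 0.25/0.25 library.

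The excess over the background was largest among the E2 genes. Among the 37 E2 genes, 25 were targets in each RNase I library (67.6%), 23 in RNase T1 1/1 (62.2%) and 19 in RNase T1 0.25/0.25 (51.4%). The 23 include the readthrough gene UBE2F-SCLY. Among the 52 USP genes, 15, 18 and 16 were targets in the RNase I libraries, 19 in RNase T1 1/1 and 12 in RNase T1 0.25/0.25, which is between 23.1% and 36.5%. Among the 8 cullins, 3 were targets in each RNase I library, 4 in RNase T1 1/1 and 2 in RNase T1 0.25/0.25. Each library thus gave the E2 family the highest share, and the USP family lay closer to the background than the E2 family did.

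**Figure D1:**
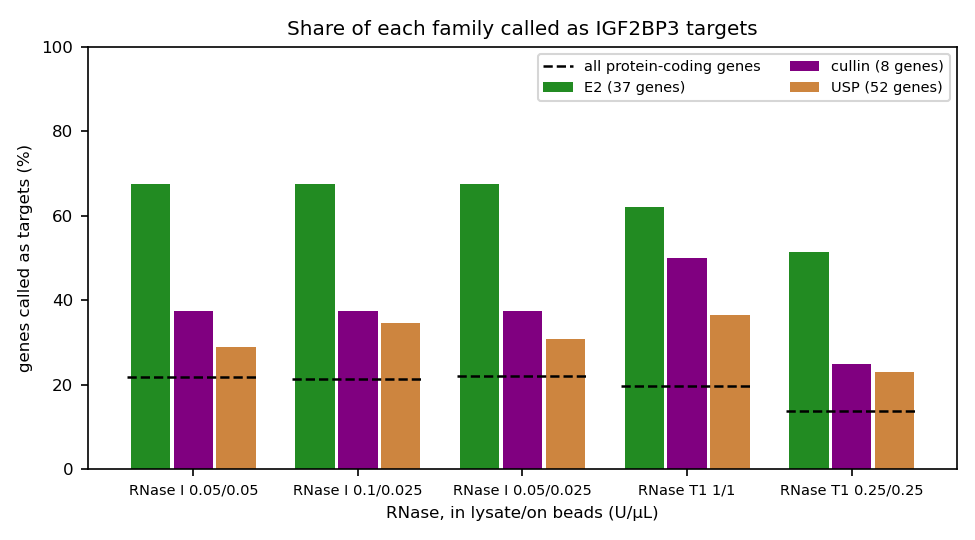
Bars give the percentage of the 37 E2, 8 cullin and 52 USP genes called as IGF2BP3 targets in each of the 5 IGF2BP3 libraries, and dashed lines give the percentage over all 20046 protein-coding genes. The E2 bars lie between 51.4% and 67.6%, above the other families in each library, and the dashed lines lie between 13.7% and 22.0%.

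In all 5 IGF2BP3 libraries 26 of the 97 genes (26.8%) were targets, against 9.91% of protein-coding genes, and 59 (60.8%) were targets in at least 1, against 29.5%. The 26 comprised 18 E2 genes, 1 cullin, which was CUL1, and 7 USP genes. At the other end, 38 genes were targets in none of the libraries. At least 1 cluster was present on 79 of the 97 genes (81.4%, background 46.7%). Among genes with a cluster, 26 of the 79 were targets in all 5 libraries (32.9%, background 21.2%), and 59 were targets in at least 1 (74.7%, background 63.3%). The set thus stood less far above the background once genes without any cluster were set aside. The E2 genes stayed above it, with 18 of 35 (51.4%) in all 5 libraries and 29 (82.9%) in at least 1. The USP genes did not, with 7 of 38 (18.4%) and 24 (63.2%). Of the 6 cullins with a cluster, 1 (16.7%) was a target in all 5 and 6 (100%) in at least 1. The 18 genes without a cluster were CUL7, CUL9, UBE2QL1, UBE2U and 14 USP genes, among them USP2, USP18, USP19 and USP20.

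Reads were concentrated on few genes. The 10 genes with the most reads held between 47.1% and 60.4% of the reads of the set, by library. The E2 genes held between 60.1% and 77.4%, the USP genes between 21.8% and 36.3% and the cullins between 0.785% and 4.22%. Together the 97 genes took between 0.800% and 0.906% of all cluster reads in the 5 libraries, a narrow range given that the totals differed widely.

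UBE2K, which builds degradative ubiquitin chains, had the highest mean level of the set over the 5 libraries. It reached 460 CPM in RNase I 0.05/0.05, 597 in RNase I 0.1/0.025, 504 in RNase I 0.05/0.025, 871 in RNase T1 1/1 and 855 in RNase T1 0.25/0.25. Both RNase T1 values lay above the 3 RNase I values and were the highest of the set, whereas USP22 and UBE2D3 were above UBE2K in each RNase I library. It also had the most sites shared by all libraries, with 7 separate loci under clusters in each of the 5. The site printed above belongs to a locus 536 nt after the stop codon of a 4361-nt 3′UTR, and the most read locus of the gene (chr4:39780363-39780745) held 849 reads over the 5 libraries.

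The UBE2D genes encode closely related, broadly acting E2 enzymes, and 3 of the 4 were targets in all 5 libraries. UBE2D3 had 486, 660 and 632 CPM with RNase I, in the order given above, and 481 and 559 CPM with RNase T1, so that the enzymes overlapped. UBE2D2 had 188, 245 and 347 CPM with RNase I and 319 and 318 CPM with RNase T1. UBE2D1 was lower, between 54.8 and 139 CPM, and UBE2D4 was between 0 and 14.8 CPM and in no library a target. Per kb of all annotated exons, the mean over the 5 libraries was 68.1 CPM for UBE2D2, 56.1 for UBE2D3, 24.5 for UBE2D1 and 1.80 for UBE2D4. UBE2D2 and UBE2D3 overlapped across libraries in this measure, and per kb of the canonical transcript their order was turned, with 151 CPM for UBE2D3 and 112 for UBE2D2.

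UBE2N pairs with the catalytically inactive variants UBE2V1 and UBE2V2 to build chains used in signalling and DNA repair, and all 3 genes were targets in all 5 libraries. UBE2N had 284, 437 and 403 CPM with RNase I and 112 and 312 CPM with RNase T1. UBE2V1 had 392, 573 and 495 CPM with RNase I and 473 and 756 CPM with RNase T1, and 100% of its reads also lay on exons of the readthrough gene PEDS1-UBE2V1. UBE2V2 had 119, 161 and 167 CPM with RNase I and 184 and 252 CPM with RNase T1, each RNase T1 value above each RNase I value. The 3 partners thus shared the call but not the order of the enzymes. In UBE2N the highest cluster had 217.8 CPM in RNase I 0.1/0.025, and its printed site lay 11 nt after the stop codon. The other RNase I libraries also had a cluster there, and neither RNase T1 library had one over the printed site. RNase T1 0.25/0.25 did have a cluster of 76.7 CPM (chr12:93409849-93409905) elsewhere within the highest cluster (chr12:93409796-93410037).

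Of the E2 enzymes of endoplasmic reticulum quality control, UBE2G2 and UBE2J1 were targets in all 5 libraries and UBE2J2 in the 3 RNase I libraries. UBE2G2 had 200, 386 and 371 CPM with RNase I and 324 and 570 CPM with RNase T1. UBE2J1 had 56.3, 78.4 and 79.0 CPM with RNase I and 137 and 164 CPM with RNase T1. UBE2J2 ran the other way, with 23.3, 56.0 and 19.4 CPM with RNase I and 2.59 and 0 CPM with RNase T1. The relative UBE2G1 ranged from 326 to 521 CPM and was a target throughout.

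UBE2L3, which passes ubiquitin to HECT and RBR ligases, had 331, 579 and 556 CPM with RNase I and 374 and 570 CPM with RNase T1, and 6 loci in all 5 libraries. UBE2W, which modifies the N terminus of substrates, had between 245 and 341 CPM. UBE2A and UBE2B, the human RAD6 homologues, lay between 76.6 and 197 CPM and between 90.9 and 127 CPM. Genes of the E2 enzymes of the anaphase-promoting complex were low: UBE2C had a cluster in 1 library only, at 16.2 CPM, and UBE2S had 43.2 CPM at most. Of the 2 E2 enzymes that act on NEDD8, UBE2M reached 20.7 CPM and UBE2F 14.8 CPM, and both were at 0 in both RNase T1 libraries.

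Among the cullins, CUL1, the scaffold of the SCF ligases, was the steadiest. It had 64.3 CPM in RNase I 0.05/0.05, 70.9 in RNase I 0.1/0.025, 59.6 in RNase I 0.05/0.025, 45.8 in RNase T1 1/1 and 16.4 in RNase T1 0.25/0.25, the RNase I values all above the RNase T1 values. The 16.4 CPM rest on 3 reads. Its clusters lay in the 531-nt 3′UTR, with 289 of the gene's 305 reads in 1 locus (chr7:148800642-148800992). CUL4B, a scaffold with DDB1 as adaptor, had 103, 51.0 and 40.3 CPM with RNase I and 111 and 0 CPM with RNase T1. CUL3, the scaffold for BTB-domain receptors, had 63.5, 42.3 and 25.3 CPM with RNase I and 117 and 0 CPM with RNase T1, and was a target in 4 libraries.

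The paralog CUL4A was lower than CUL4B, with 28.8, 0 and 13.4 CPM with RNase I and 16.4 and 0 CPM with RNase T1. CUL2 had 18.2, 6.22 and 0 CPM with RNase I and 24.2 and 49.3 CPM with RNase T1, and was a target in RNase T1 0.25/0.25 only, on 9 reads. CUL5 had 8.04, 0 and 4.47 CPM with RNase I and 25.9 and 0 CPM with RNase T1, and was a target in RNase T1 1/1 only. CUL7 and CUL9 had no cluster on an exon. A value of 0 in the RNase T1 0.25/0.25 library has little resolution, since a cluster of 2 reads was worth 11.0 CPM there. Per kb of annotated exon the means of the 6 cullins with clusters lay between 1.17 CPM for CUL5 and 12.4 CPM for CUL1. The 8 E2 genes with the most reads lay between 32.3 and 127 CPM, but they were picked for their level. This is therefore no comparison of the families, and other E2 genes lay in the cullin range, such as UBE2O at 1.18 and UBE2M at 3.95 CPM. The length used also matters: CUL4B was at 1.81 CPM per kb of annotated exon and at 10.3 per kb of the canonical transcript.

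USP22, the protease of the SAGA co-activator complex, which takes ubiquitin off histones, stood apart within its family. It had 658, 633 and 768 CPM with RNase I and 184 and 323 CPM with RNase T1, so that the lowest RNase I value was well above the highest RNase T1 value. It had the most reads of the USP genes in each of the 3 RNase I libraries. Its 3438-nt 3′UTR was covered by broad clusters with RNase I, and 91.9% of its reads lay in the 3′UTR of the canonical transcript. Its most read locus (chr17:21002183-21002649) had 193, 208 and 265 CPM with RNase I and 83.0 and 252 CPM with RNase T1, and held 943 of 2851 reads.

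USP46 and USP12 encode related proteases that are activated by WD-repeat partners, and they differed in how the enzymes compared. USP46 had 272, 281 and 230 CPM with RNase I and 252 and 87.7 CPM with RNase T1, which overlap. USP12 had 74.5, 64.7 and 71.6 CPM with RNase I and 137 and 186 CPM with RNase T1, without overlap. The printed USP12 site lies 2217 nt after the stop codon and was covered in all 5 libraries, with 104 CPM in RNase T1 0.25/0.25 and between 15.7 and 29.9 CPM in the others.

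USP10, which acts on p53 and binds the stress granule protein G3BP, had 230, 202 and 261 CPM with RNase I and 200 and 192 CPM with RNase T1. The lowest RNase I and the highest RNase T1 value were 202 and 200 CPM, so that this separation is small. USP14, a protease of the proteasome, had 172, 204 and 201 CPM with RNase I and 150 and 236 CPM with RNase T1. USP3, a histone protease, had 136, 129 and 163 CPM with RNase I and 167 and 54.8 CPM with RNase T1, and USP31 ranged from 68.6 to 137 CPM. USP6NL, the GTPase-activating protein, ranged from 116 to 209 CPM and was a target in all 5 libraries, so that 6 of the 7 USP symbols called throughout stand for proteases.

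USP34, a very large protease linked to Wnt signalling, had 272, 273 and 228 CPM with RNase I and 174 and 65.8 CPM with RNase T1. Its reads lay mainly in coding sequence, 89.3% by the canonical transcript. The largest locus (chr2:61214233-61214694, coding sequence) had 102, 116 and 154 CPM with RNase I, 14.7 CPM with RNase T1 1/1 and 0 CPM with RNase T1 0.25/0.25. A second locus (chr2:61350567-61350685) ran the other way, with 17.4, 24.9 and 22.4 CPM with RNase I and 44.1 and 65.8 CPM with RNase T1. It is coding by the canonical transcript, but its highest RNase T1 clusters count as 3′UTR once any transcript is taken. Within 1 gene, the enzymes thus ranked these loci in opposite orders, and the loci need not lie on the same transcript.

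USP8, an endosomal protease, had 85.5, 98.3 and 73.1 CPM with RNase I and 123 and 148 CPM with RNase T1, and 59.1% of its reads lay in coding sequence. Its coding locus at chr15:50490258-50490366 was covered in all 5 libraries, with between 19.0 and 34.8 CPM for RNase I and 56.2 and 49.3 CPM for RNase T1. USP7, which controls p53 and its ligase MDM2, had 40.6, 56.0 and 83.5 CPM with RNase I and 34.6 and 38.4 CPM with RNase T1, all of it in the 3′UTR, and was a target in 4 libraries. USP9X, a large protease with many substrates, had clusters in 4 libraries at up to 70.7 CPM but was a target in 1 only.

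**Figure D2:**
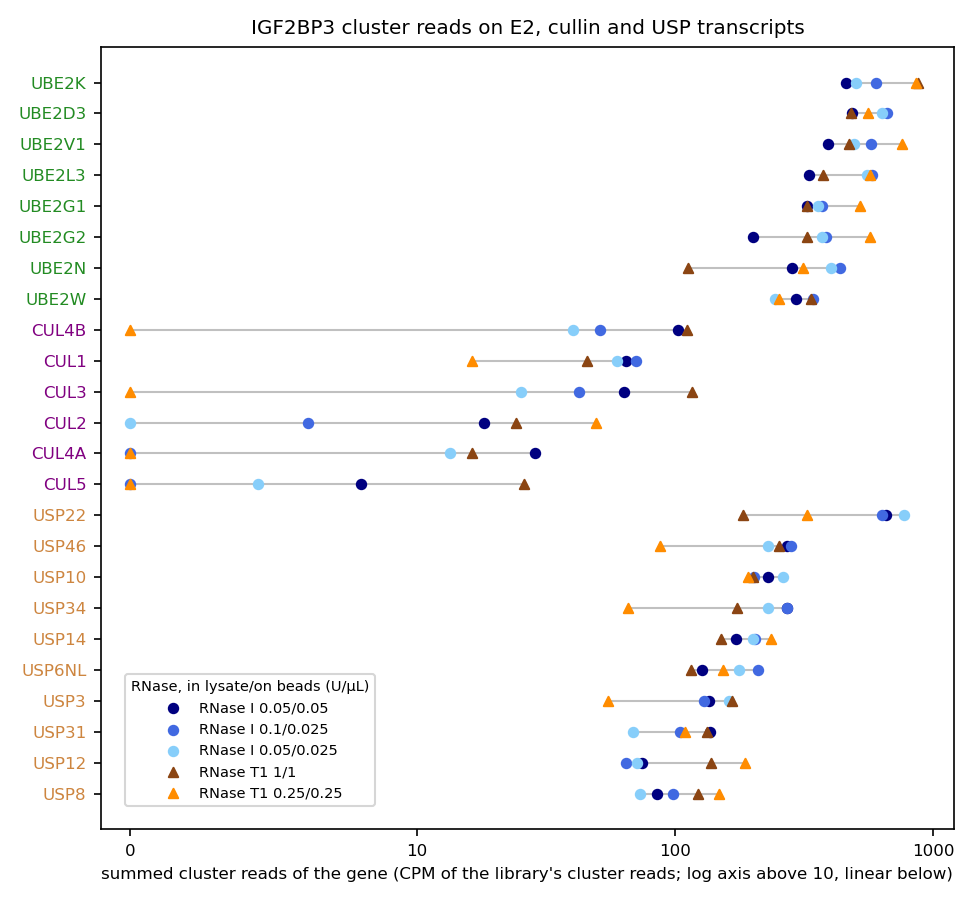
Each row is a gene (E2 in green, cullin in purple, USP in light brown) and each point its summed cluster reads in CPM in 1 IGF2BP3 library, circles for RNase I and triangles for RNase T1, with a grey line from the lowest to the highest value; the axis is logarithmic above 10 CPM and linear below. The 8 E2 genes with the most reads lie above 100 CPM in each library, the cullins reach 117 CPM at most, and the triangles of USP22 lie below and those of UBE2K and USP12 above their circles.

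Clusters of the 5 libraries that overlapped were merged into 848 loci. Of these, 77 (9.08%) were covered in all 5 libraries and held 57.4% of the reads of the set. They lay on 34 genes, and 68 were mainly in the 3′UTR and 9 mainly in the coding sequence of the canonical transcript. The 9 coding loci were on UBE2D2, UBE2D3, USP8, UBE2T, UBE2W and USP34. In UBE2D2, the locus chr5:139614858-139614966 had 37.2, 48.5 and 76.0 CPM with RNase I and 75.2 and 93.2 CPM with RNase T1. A further 459 loci (54.1%) were seen in 1 library only and held 7.72% of the reads.

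**Figure D3:**
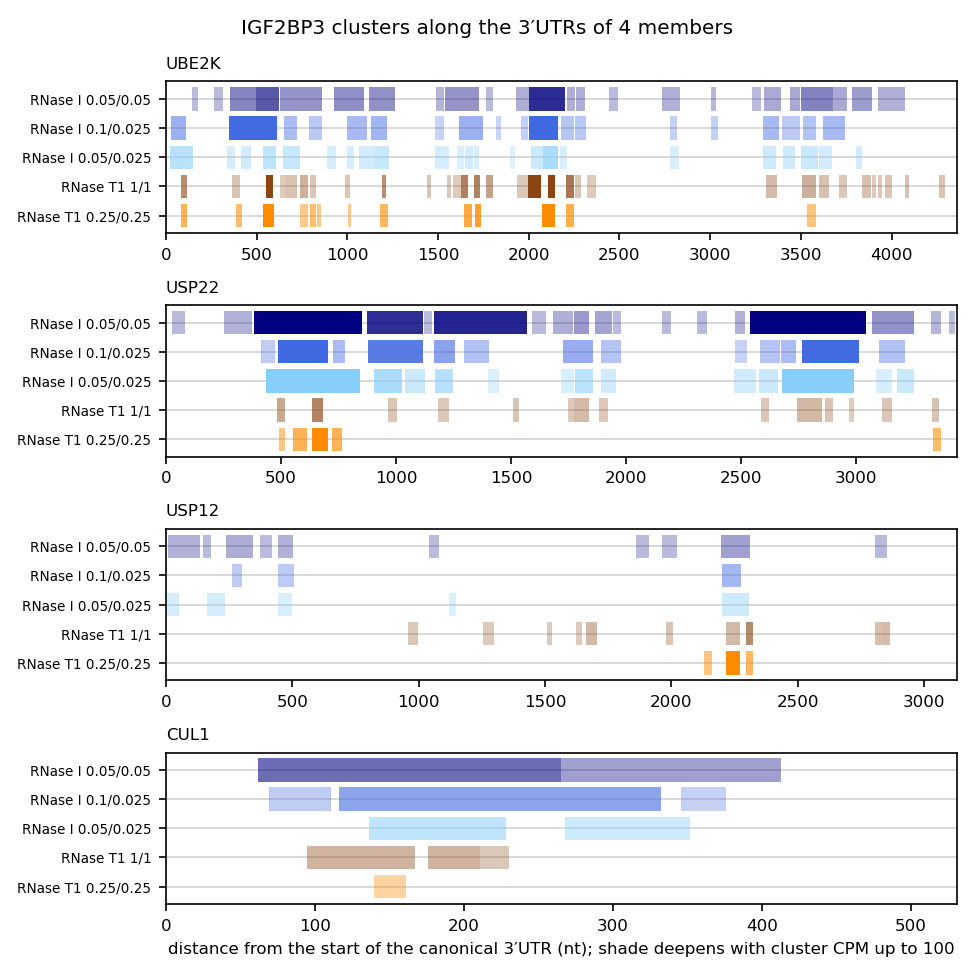
Boxes are clusters along the canonical 3′UTR of UBE2K, USP22, USP12 and CUL1, 1 line per library, with the distance from the start of the 3′UTR in nt on the horizontal axis and a deeper shade for more CPM. RNase I clusters of USP22 are broad and span long stretches, RNase T1 clusters of the same gene are narrow, and clusters of UBE2K recur at the same distances in the 5 libraries.

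The clusters of the set had a median length of 54, 59 and 55.5 nt with RNase I and 33 and 38 nt with RNase T1, close to the medians of all protein-coding genes, 57, 55 and 55 nt with RNase I and 34 and 38 nt with RNase T1. Among genes of the set with a cluster in the 3′UTR, the median covered share of the canonical 3′UTR was 24.1%, 16.8% and 14.5% in the RNase I libraries and 8.56% and 5.29% in the RNase T1 libraries. The median was thus lower with RNase T1, but single genes differed from it: USP10 was covered to 44.4% in RNase T1 1/1 and to 32.1% in RNase I 0.1/0.025. Depth also fell in this order within each enzyme, and its part in the coverage was not tested.

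The set was bound mainly in 3′UTRs. When a base that any transcript of the gene annotates as 3′UTR counted as such, 92.0%, 93.7% and 92.9% of the reads lay there with RNase I and 92.3% and 97.1% with RNase T1. The shares over all protein-coding genes were 86.1%, 88.0%, 87.1%, 90.7% and 91.3%. By the canonical transcript alone, the shares of the set were 83.6%, 86.9%, 85.5%, 86.0% and 92.1%, against 78.9%, 80.7%, 79.4%, 85.3% and 85.7% over all protein-coding genes. Counting intervals around the shares of the set were narrow, such as 83.1% to 84.1% in RNase I 0.05/0.05 (95% Wilson, counting error only), and the set lay above the background in each library under both gene models. For the canonical transcript in RNase T1 1/1 the interval of the set, 85.3% to 86.7%, held the background. The families were not alike in this. The E2 reads lay in the canonical 3′UTR to 92.7%, 93.5% and 92.0% with RNase I and to 90.7% and 93.4% with RNase T1. The USP reads lay there to 68.1%, 72.1%, 71.8% and 77.3% in the first 4 libraries, below the background, and to 87.1% in RNase T1 0.25/0.25. With any transcript counted, the USP shares were 84.8%, 85.4%, 86.7% and 88.6%, again below the background in these 4 libraries, and 95.8% in RNase T1 0.25/0.25. In RNase I 0.05/0.025 the interval of this USP share, 85.1% to 88.2%, held the background of 87.1%.

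The families differed in where their reads lay, a comparison of pooled reads in which genes with many reads weigh most. By the canonical transcript, coding sequence held between 6.32% and 8.75% of the E2 reads and between 12.9% and 31.5% of the USP reads, by library. Besides USP34 and USP8, the coding share was 73.2% in USP39, a splicing factor without protease activity, 64.8% in USP9X, 65.1% in USP38 and 38.3% in USP10. Many of these bases count as 3′UTR in other annotated transcripts, and the 3′UTR share was then 71.4% in USP39, 88.9% in USP9X, 97.4% in USP38 and 99.7% in USP10. In the E2 family, UBE2D2 had 33.9% of its reads in coding sequence under both gene models. UBE2T, an E2 of DNA crosslink repair, had 90.0% in coding sequence by the canonical transcript, but 95% in the 3′UTR and 0% in coding sequence once any transcript was counted. USP34 and USP8 remained mainly coding, with 76.4% and 59.1% of their reads in coding sequence.

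Within the canonical 3′UTR the clusters of the set lay nearer to the stop codon than those of protein-coding genes at large. The median position was 37.3%, 31.2% and 28.6% of the 3′UTR length with RNase I and 32.6% and 27.8% with RNase T1, against 43.1%, 41.5%, 40.9%, 42.8% and 39.9%. In the 20% of the 3′UTR nearest the stop codon lay 29%, 36.1% and 35.7% of the clusters of the set with RNase I and 33.8% and 36.8% with RNase T1, against between 24.7% and 28.1% over protein-coding genes. In the 20% farthest from it lay 13.9%, 9.66% and 8.83% with RNase I and 9.39% and 2.94% with RNase T1, against between 14.8% and 16.0%. The RNase T1 0.25/0.25 values rest on 136 clusters. Clusters of 1 gene are not independent of each other, and UBE2K alone gave 123 of 2247 clusters.

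CATT was found in 18.7%, 26.5% and 25.3% of the 41-nt windows around cluster modes with RNase I and in 34.1% and 37.1% with RNase T1. Over all protein-coding genes the shares were 20.4%, 23.0%, 22.9%, 30.8% and 31.4%. CAGT was found in between 19.0% and 21.6% of the windows of the set and between 18.2% and 20.9% of all windows. The share of CATT was thus higher with RNase T1 than with RNase I both in the set and over all genes, while the shares of CAGT in these windows were close in all libraries. In whole clusters in place of windows, CATT was found in 39.5%, 44.2% and 46.4% of the clusters of the set with RNase I and in 38.5% and 43.7% with RNase T1, so that the enzymes then overlapped. CAGT was found in 34.4%, 33.9% and 35.2% of whole clusters with RNase I and in 9.90% and 18.5% with RNase T1, so that it was then higher with RNase I. Whole clusters are longer with RNase I, by the medians given above, and the part of cluster length in these shares was not tested.

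The study asked how the choice of RNase changes the targets found. Among the members with at least 50 cluster reads, 66 in all, the 3 RNase I values lay above both RNase T1 values in 11 (16.7%, background 22.6%) and below both in 7 (10.6%, background 9.90%). These counts are near or below the background, so the set as a whole was not shifted to an enzyme more often than other genes. The 11 genes higher with RNase I were USP22, USP10, UBE2Z, UBE2Q1, CUL1, USP34, USP7, UBE2S, UBE2J2, USP25 and UBE2O. The 7 genes lower with RNase I were UBE2K, UBE2V2, UBE2J1, USP12, USP8, USP16 and CUL2. With the RNase T1 1/1 library left out the counts were 23 and 14, and with the RNase T1 0.25/0.25 library left out 17 and 21, so that they depend on which RNase T1 library is compared.

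The ratio of the mean RNase I to the mean RNase T1 level ranged widely. Measurable ratios ran from 25.4 for UBE2J2 and 11.7 for UBE2S down to 0.22 for CUL2, 0.14 for USP15 and 0.03 for USP45. UBE2O, UBE2M and UBE2L6 had no cluster with RNase T1 and no ratio. USP45 had 2.12 CPM in RNase I 0.05/0.05 and 44.9 CPM in RNase T1 1/1 and was at 0 in the other 3 libraries. USP15, a protease of several signalling pathways, had 6.77 CPM in RNase I 0.05/0.05, 32.0 CPM in RNase T1 1/1 and 0 elsewhere. The low ratios of both thus rest on 1 RNase T1 library. The high ratios do so too: UBE2J2 had 3 reads and UBE2S 5 reads in RNase T1 1/1, and both were at 0 in RNase T1 0.25/0.25. Against RNase T1 1/1 alone their ratios were 12.7 and 5.86, and against RNase T1 0.25/0.25 alone they have none.

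**Figure D4:**
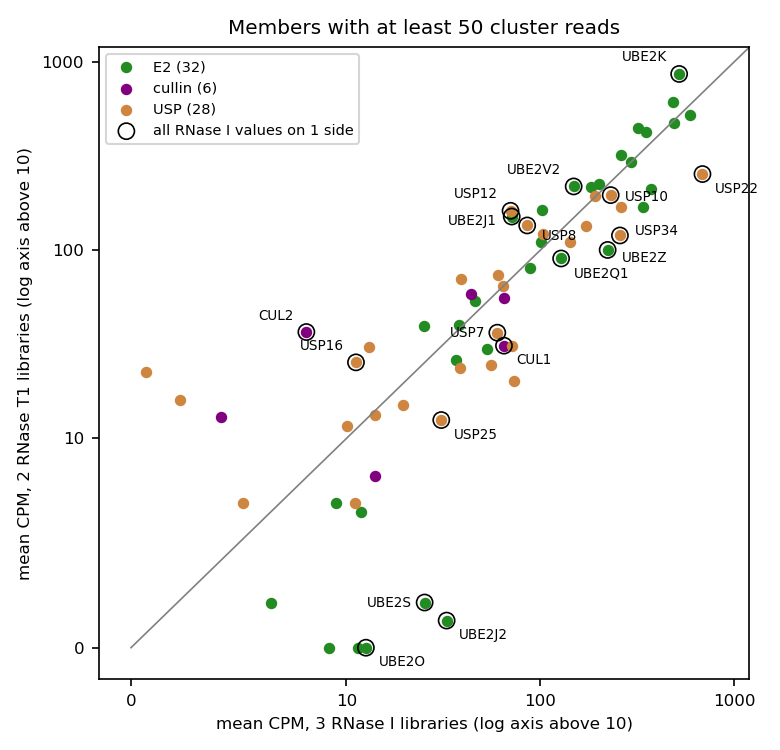
Each point is 1 of the 66 members with at least 50 cluster reads, with the mean CPM of the 3 RNase I libraries on the horizontal and of the 2 RNase T1 libraries on the vertical axis, both logarithmic above 10 CPM and linear below; the line marks equal means and rings mark members whose RNase I values all lie on 1 side of both RNase T1 values. Of the ringed points, 11 lie below the line and 7 above it.

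As targets, 10 members were called with RNase I only (10.3%, background 7.61%) and 6 with RNase T1 only (6.19%, background 2.54%). These are shares of all genes, and the set held more targets of any kind. Among genes called in at least 1 library, RNase I only made up 10 of 59 in the set and 1526 of 5919 over protein-coding genes. RNase T1 only made up 6 of 59 and 510 of 5919. The shares of all genes therefore do not by themselves show an excess of calls with 1 enzyme. The RNase I group comprised CUL4A, UBE2E2, UBE2F, UBE2J2, UBE2L6, UBE2NL, UBE2S, USP25, USP54 and USP9X, and UBE2J2 and UBE2NL were called in all 3 RNase I libraries. The RNase T1 group comprised CUL2, CUL5, UBE2F-SCLY, USP15, USP16 and USP45, each called in 1 of the 2 RNase T1 libraries. The highest UBE2F-SCLY cluster in RNase T1 1/1 (chr2:238099233-238099262, 15 reads) lay far downstream of the highest UBE2F cluster in RNase I 0.05/0.05 (chr2:238041343-238041437). The reads behind this call therefore need not come from an E2 transcript. Across the 79 genes with a cluster, the CPM of library pairs correlated with a Pearson r between 0.957 and 0.977 within RNase I, 0.901 within RNase T1 and between 0.781 and 0.902 between enzymes. The points share gene lengths and transcript levels, and no p is given.

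The base composition of the 3′UTR moved with the ratio. The share of G in the canonical 3′UTR had a median of 24.6% in the 11 genes higher with RNase I, from 15.0% in USP25 to 31.5% in UBE2J2. It was 18.5% in the 7 genes lower with RNase I, from 14.1% in USP16 to 21.3% in USP8, and 19.0% in the other 48. USP22 had 26.4% G and UBE2K 18.5%. Over the 63 members with a ratio and a 3′UTR, the log2 ratio and the share of G had a Spearman rho of 0.45 and a Pearson r of 0.54, and over 5969 protein-coding genes a rho of 0.42 and an r of 0.40. With the share of G and C together the rho was 0.47 in the members and 0.43 in protein-coding genes. The share of G is part of that share, so these values do not separate G from C. These are correlations across genes, which share the same 5 libraries, and the part of base composition in the ratio was not tested.

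**Figure D5:**
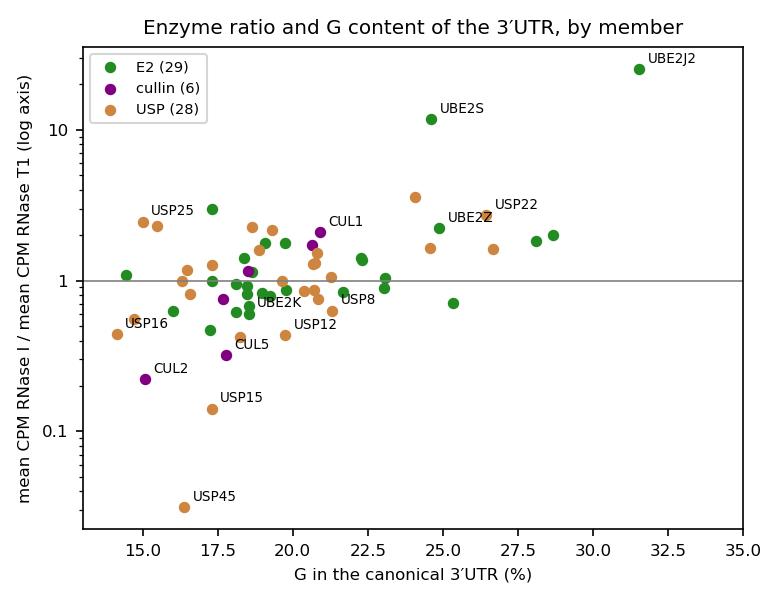
Each point is 1 of 63 members, with the percentage of G in the canonical 3′UTR on the horizontal axis and the ratio of mean RNase I to mean RNase T1 CPM on a logarithmic vertical axis; the line marks a ratio of 1. UBE2J2 (31.5% G, ratio 25.4) and USP22 (26.4% G, ratio 2.71) lie at the upper right, and CUL2 (15.1% G, ratio 0.22) and USP16 (14.1% G, ratio 0.44) at the lower left.

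Several genes share sequence with others, and their reads cannot be placed with certainty. All 3 clusters of UBE2L5 also occur in transcripts of UBE2L3, and all 8 of USP6 in USP32 or its pseudogene. Of the reads of UBE2S, 90.0% lay in clusters whose sequence also occurs in the pseudogenes UBE2SP1 or UBE2SP2, and of the reads of UBE2NL 89.9% lay in clusters that also occur in UBE2N. The share was 32.6% for USP32 and at most 16.3% for each other member. The values of UBE2S, UBE2NL, UBE2L5 and USP6 are therefore uncertain as to their gene.

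Other genes of the pathway were read from a list of 65 that holds E1 enzymes, ubiquitin-like modifiers, partners and regulators of cullins, and other deubiquitinase families. Of these 65, 35, 34 and 35 were targets in the RNase I libraries and 29 and 24 in the RNase T1 libraries. The backgrounds were 21.9%, 21.3% and 22.0% with RNase I and 19.6% and 13.7% with RNase T1. In all 5 libraries 15 of the 65 were targets, with a background of 9.91%. In none were 21 of the 65 targets, while 29.5% of protein-coding genes were targets in at least 1. The highest levels were those of the modifier SUMO2, with 169, 243 and 337 CPM with RNase I and 181 and 915 CPM with RNase T1, and of DCUN1D1, which promotes attachment of NEDD8 to cullins, with 299, 386 and 285 CPM with RNase I and 379 and 296 CPM with RNase T1. COPS2, a subunit of the COP9 signalosome that removes NEDD8 from cullins, had between 247 and 347 CPM, and 4 signalosome genes (COPS2, COPS7A, COPS7B and COPS8) were called in all 5 libraries. CAND1, which exchanges the receptors of cullin ligases, was also a target in all 5, while DDB1, the CUL4 adaptor, was a target in 2, and the cullin ligase E2 gene CDC34 in none. BIRC6, the other E2 gene outside the symbol rule, encodes a giant inhibitor of apoptosis and was a target in all 5 libraries, with 251, 264 and 204 CPM with RNase I and 261 and 121 CPM with RNase T1. The scaffolds themselves thus had fewer reads than several of their regulators, a comparison of summed levels that does not correct for transcript length.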

How the data were processed

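IGF2BP3 IR-PAR-CLIP clusters were analysed in 6 HCT116 libraries, grouped by the labels, with 1 library per condition. The authors extracted and collapsed unique molecular identifiers with UMI-tools 1.1.1, trimmed with Trimmomatic 0.30, aligned to GRCh38.p13 with Bowtie 0.12.7 and ran PARalyzer on each library separately. The deposited cluster values are counts of reads and of conversion events, not normalized by the authors. The deposited mode score was not used. How reads with several alignments were treated is not given in the sources used here.

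From these counts, CPM, targets, features, positions, motifs and loci were computed with Python 3.11.15, pandas 2.3.3, numpy 2.4.6, SciPy 1.17.1, pysam 0.24.0 and bedtools 2.31.1, and plots with matplotlib 3.10.9. Genes were assigned by same-strand exon overlap of at least 1 nt in GENCODE release 44, and a cluster on several features was given to the 3′UTR, else to coding sequence, else to the 5′UTR. Of 244645 cluster sequences, 244645 matched GRCh38. Gene assignment and calls were tested on simulated data. No test was made between conditions, and Wilson 95% intervals cover counting error only. Cluster reads are not library sizes, so depth outside clusters is unknown.

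The members, the list of 65 pathway genes and the alternatives were chosen with earlier results of these data known. Named were all cullins, USP7 and CUL3, the 8 E2 and 10 USP genes with the highest mean CPM, the 4 highest and 4 lowest enzyme ratios, the 3 genes with most reads outside the 3′UTR, the 3 with most loci in 5 libraries, and targets of 1 enzyme. Other members were named after their values were seen. Alternatives changed the target thresholds, the exon overlap, the gene models, shared and copied sequences, the motif window and the libraries. The values of 1 member are not reported here.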

Additional observations from a re-analysis of the deposited data

Results flagged for a closer look

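Clusters of the IGF2BP3 libraries were also present outside the exons of these genes, where the IgG library had 0. Within introns, on the same strand, there were 28 clusters, of which 15 came from RNase I 0.05/0.05 and 10 from RNase T1 1/1, the deepest libraries. UBE2B had the most intronic reads, 48 over 3 libraries, followed by UBE2D1 with 47 and UBE2G1 with 39. CUL9, which had no cluster on an exon, had 2 intronic clusters with 16 reads. Within 5 kb downstream of the annotated gene end there were 8 clusters, 5 of them after UBE2Z, with 48 reads, and 3 after UBE2F, with 16. UBE2F-SCLY, which runs on past UBE2F, has the same counts in its introns.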

How the results depend on the processing

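Read depth limits the RNase T1 0.25/0.25 library most, where 10 CPM is less than 2 reads. No paired analysis was possible because each condition has 1 library and the labels carry no replicate numbers. Counts of targets stayed within 1.5 times of the reported ones with 5 CPM, with more than 0.25 conversion events per read, with 0.5 of the cluster required in exons, with exons of the canonical transcript, and without clusters on several genes or with copies elsewhere. At 20 CPM, RNase T1 1/1 gave 23 targets. With at least 20 reads in place of CPM, RNase I 0.05/0.025 gave 25, RNase T1 1/1 30 and RNase T1 0.25/0.25 7, and 6 genes were targets in all 5. Above 0.75 conversion events per read, RNase I gave 18, 24 and 24, RNase T1 1/1 gave 14, and 2 genes were targets in all 5. With conversion events above 0.5 of all events at T positions, each library and the 5 together gave 0; the cause was not tested. Leaving out 1 library, between 26 and 32 genes were targets in all the others.

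With coding sequence placed first, the 3′UTR share of the reads was 76.6%, 82.9% and 83.2% with RNase I and 85.4% and 91.6% with RNase T1. By the canonical transcript it was 83.6%, 86.9%, 85.5%, 86.0% and 92.1%. As a share of clusters it was 84.2%, 89.7%, 90.4% and 89.7% in the first 4 libraries. The median of the named members was 7.43 CPM per kb, or 10.3 with canonical lengths. In whole clusters instead of 41-nt windows, CATT was found in 39.5%, 44.2% and 46.4% with RNase I and in 38.5% with RNase T1 1/1, and with 1 cluster per gene in 27.3% in RNase I 0.05/0.05. In whole clusters the shares of the enzymes thus overlapped, with 43.7% in RNase T1 0.25/0.25. In alternatives chosen after seeing the data, the genes with all RNase I values above numbered 7 at a minimum of 200 reads. Leaving out 1 library, they numbered between 12 and 23, and those below between 7 and 21. The ratios against 1 RNase T1 library alone were also chosen after seeing the data: with RNase T1 0.25/0.25 left out, the ratio of UBE2J2 was 12.7 and that of UBE2S 5.86, and with 1 RNase T1 library left out that of CUL2 was 0.17 or 0.34.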
